A study of Homo sapiens with 6 samples.

Results

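ATF4 is a transcription factor of the integrated stress response, and the genes described here are ATF4 itself, its well-known targets and the genes that supply a cell with amino acids. They comprise 34 genes, chosen by symbol from a list written for this work, of 46427 genes in the deposited gene table, and all 34 were found there. The RNA came from MDA-MB-231/RR, a line made radioresistant from MDA-MB-231, which is a human triple-negative breast cancer line. The 3 control libraries came from MDA-MB-231/RR cells for which the labels name no treatment. The 3 co-treated libraries came from the same line given ortho-topolin riboside (oTR), a plant cytokinin nucleoside, together with melatonin, the pineal hormone. Both groups grew in serum-supplemented DMEM with antibiotics and were taken off the plate with trypsin. The labels read here name no dose, exposure time or vehicle. Each compound by itself was not analysed here, so the parts played by oTR and melatonin cannot be told apart. No label says that the 3 samples of a group were separate cultures, so the p-values describe the spread among these samples alone, and that spread may be technical.

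In the integrated stress response, eIF2 kinases sense misfolded protein, amino acid lack, heme lack or double-stranded RNA and phosphorylate eIF2. General translation then slows, while ATF4 mRNA, held back by upstream reading frames in its leader, is translated more, so the level of ATF4 mRNA does not report the level of ATF4 protein. ATF4 pairs with C/EBP factors at composite elements and turns on amino acid transporters, enzymes of serine, glycine and asparagine synthesis, tRNA synthetases and, with DDIT3, factors that end the response or the cell. In breast cancer cells this program is known for sustaining growth when amino acids run short.

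The deposited values are estimated counts, which summed to between 50569611 and 72309015 per library. Markers mostly fitted the line: the 7 mesenchymal markers were all at a TPM (length-scaled transcript abundance) of 1 or more, as were 5 of 9 luminal and epithelial markers, while ESR1, PGR, EPCAM and CDH1 stayed under 1 TPM in the mean. The 5 immune markers summed to at most 0.455 TPM in any library, and 0 of 4 endothelial markers reached 1 TPM in the mean. Of 4 fibroblast markers 2 did. COL1A1 was at 8.20 TPM in the controls and 6.99 TPM after co-treatment and fell (edgeR adjusted p = 0.0091). PDGFRB was at 2.48 and 2.62 TPM and did not pass. The mesenchymal markers summed to between 3552 and 3699 TPM in the controls and between 3977 and 4297 TPM in the co-treated libraries, mostly through VIM. By edgeR 0 of the 7 rose, with VIM and ZEB1 higher at an unadjusted p under 0.05, while SPARC and CAV1 fell by 0.31 ± 0.06 and 0.22 ± 0.05 on the log2 scale (SE). Of the luminal and epithelial list FOXA1 rose, and KRT18, GATA3 and the barely detected EPCAM fell. The part of these markers in the results was not tested. Co-treated replicates 1 and 2 lay at opposite ends of the second principal component (28.3 and -26.4), so each result was also computed without either. Of the 34 members 33 passed the filter on low counts. CBS, which condenses homocysteine with serine, did not, with 1 estimated count in control replicate 3 and 0 in the other 5 libraries, and its near-identical copy CBSL was equally empty.

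The members did not move as a block. Transcripts of ASNS, PHGDH, VLDLR and the transporters SLC38A2 and SLC1A4 rose, and those of PPP1R15A, STC2, SHMT2 and the transporters SLC7A5, SLC7A1, SLC3A2 and SLC1A5 fell. Thus 5 of 33 rose and 7 fell, or 36.4%, against 33.7% of all 16557 genes tested (16.6% upward and 17.1% downward; edgeR quasi-likelihood test, Benjamini-Hochberg adjusted p under 0.05). The share called is therefore near that of all genes. The median log2 fold change of the members was -0.12, against 0.0024 for all genes. On the scale log2(TPM + 1), where the median of all genes lay at 0.09, 9 members rose and 5 fell, and the members' median was -0.0005. On that scale 27.3% of all genes rose and 8.09% fell, against 16.6% and 17.1% by edgeR, so the balance of every list below is to be read against these shares. The groups did not overlap in CPM (counts scaled to library size) for 19 of the 33 tested members, 6 with the co-treated libraries above and 13 below. Over all 16557 genes the share was 47.4%, with 3859 above and 3993 below. The changes were modest: among the called members only SLC1A4, PPP1R15A and STC2 differed by at least 1.5-fold.

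**Figure D1:**
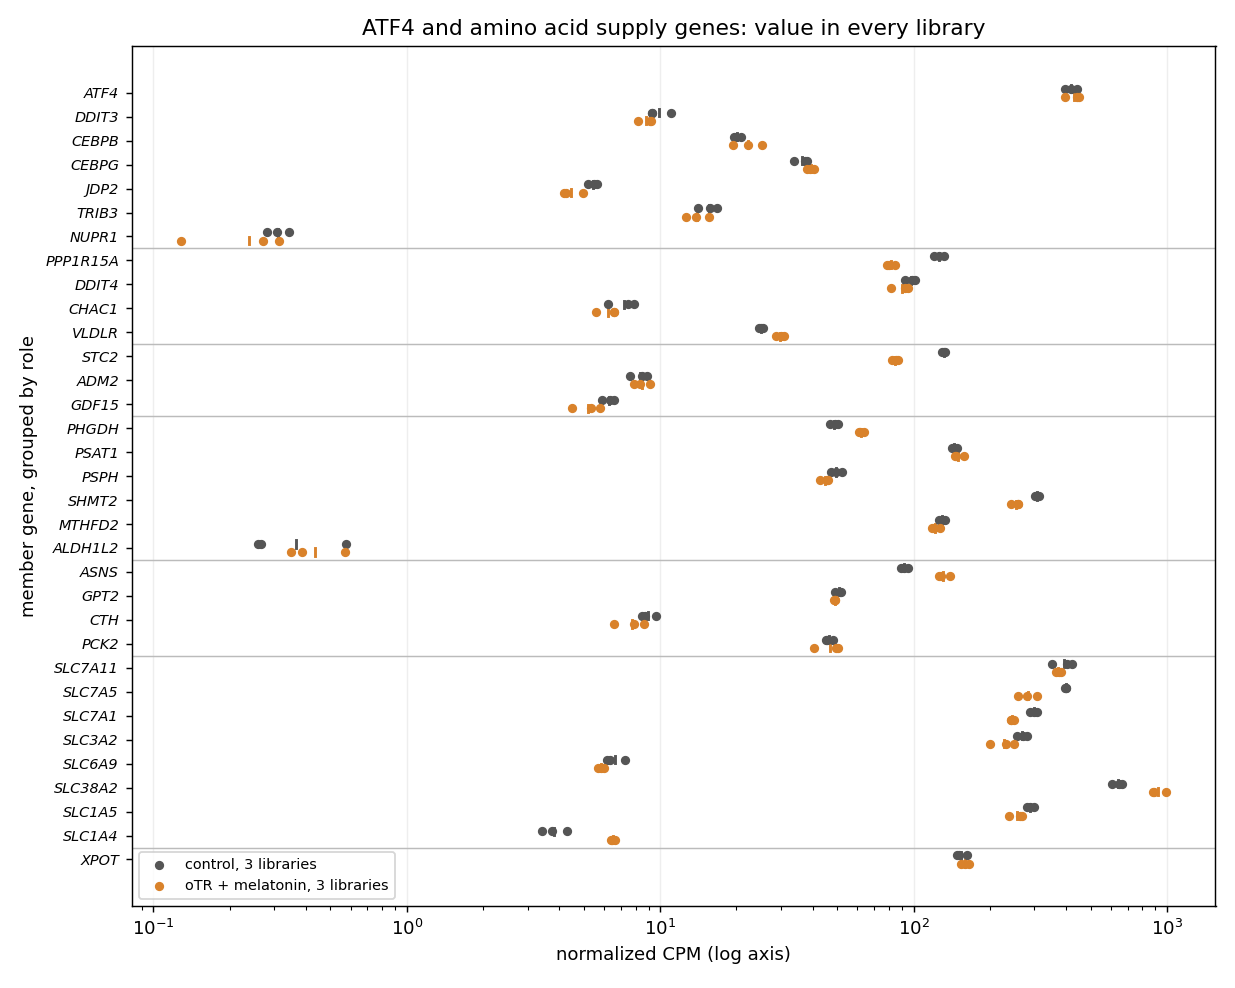
Normalized CPM (log axis) of the 33 tested members in each of the 3 control and 3 co-treated libraries, with a short line at each group mean and grey lines between roles. The co-treated points lie above the controls for SLC38A2, ASNS, PHGDH, VLDLR and SLC1A4 and below them for PPP1R15A, STC2 and SLC7A5, and ATF4 overlaps.

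Promoter sequence is shown for members that carry the letters of the C/EBP-ATF composite element near a start, since this is the element through which ATF4 is known to act. The search used TGATGNAA and its reverse complement TTNCATCA, where N is any base, in windows of 250 bases before to 50 after each RefSeq start (RefSeq, GRCh38.p14). Of 28 members with a window 8 held a match (28.6%), against 2.77% of the 12026 tested genes with one. The members are textbook ATF4 targets, picked partly for such elements, so this difference is a description. NUPR1, PSPH, SHMT2, ALDH1L2, GPT2 and SLC7A11 had no entry. Of the 8, SLC1A4 and ASNS rose, SLC1A5, SLC3A2 and SLC7A1 fell, and CEBPG, CHAC1 and JDP2 did not pass. The stretches below run 5′ to 3′ on the gene's strand with the match in capitals; those of JDP2, CHAC1 and CEBPG were added after their values were seen, for comparison.
SLC1A4, chr2:64989300-64989399, plus strand: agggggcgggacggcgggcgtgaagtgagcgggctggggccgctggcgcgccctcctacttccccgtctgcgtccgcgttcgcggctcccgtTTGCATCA
ASNS, chr7:97872423-97872522, minus strand: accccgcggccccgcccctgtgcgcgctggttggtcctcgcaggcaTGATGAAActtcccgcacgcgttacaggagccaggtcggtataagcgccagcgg
SLC1A5, chr19:46784858-46784957, minus strand: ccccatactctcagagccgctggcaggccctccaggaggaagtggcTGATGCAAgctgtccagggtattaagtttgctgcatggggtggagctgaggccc
JDP2, chr14:75427922-75428021, plus strand: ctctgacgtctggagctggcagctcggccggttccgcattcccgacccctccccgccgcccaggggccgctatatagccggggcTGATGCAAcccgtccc
CHAC1, chr15:40953221-40953315, plus strand: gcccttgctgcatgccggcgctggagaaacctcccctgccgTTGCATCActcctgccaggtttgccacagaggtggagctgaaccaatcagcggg
CEBPG, chr19:33374013-33374112, plus strand: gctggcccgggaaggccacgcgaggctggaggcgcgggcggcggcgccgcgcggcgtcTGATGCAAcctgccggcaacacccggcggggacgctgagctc

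With the start base counted as 0, the first base of the match stood at -7 in SLC1A4, where it ends on the start base itself, at -68 in ASNS, at -97 in SLC1A5, at -16 in JDP2, at -209 in CHAC1 and at -42 in CEBPG. In SLC7A1 and SLC3A2 it stood after the start, at 7 and 37. These starts differed in how much of the gene's estimated abundance fell to transcripts annotated to begin there. Use of the starts themselves was not measured. Transcripts beginning within 50 bases of the start carried 96.5% of SLC1A4, 94.6% of CHAC1, 82.9% of ASNS and 100% of SLC7A1 FPKM (a length-scaled abundance) in the controls. The matching start of JDP2 carried 17.3% in the controls and 48.1% after co-treatment in the mean, but single libraries differed widely. Its main transcript, NM_001135048, had 20.3%, 25.7% and 0.403% in the controls and 53.4%, 1.17% and 49.3% after co-treatment. These groups overlapped, and transcript usage of JDP2 was not called (limma diffSplice, adjusted p = 0.932). The SLC1A5 and SLC3A2 starts with a match carried 1.30% and 1.31%. For CEBPG no transcript of the authors' table began there, so no share could be read. SLC1A4 and ASNS, which rose, and SLC7A1, which fell, are thus the called members with the letters at the annotated start that held most of their FPKM.

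ATF4 mRNA and its partner factors did not pass the test. ATF4 (gene ID 468, chromosome 22) was at 396, 417 and 442 CPM in control replicates 1, 2 and 3 and at 398, 443 and 449 CPM in co-treated replicates 1, 2 and 3. The groups overlapped, and the log2 fold change was 0.04 ± 0.06 (SE), with an edgeR adjusted p of 0.631. ATF4 had the highest TPM of all members in the controls, 479 ± 21.9 (SD, n = 3), and was at 550.3 ± 46.7 TPM in the co-treated cells. On that scale it passed (log2 fold change 0.20 for log2(TPM + 1), limma adjusted p = 0.0489), where all genes lay 0.09 higher. ATF4 also passed upward by edgeR with the replicate block and a length trend removed (log2 fold change 0.099, adjusted p = 0.0485). MIEF1, whose span overlaps that of ATF4, had 84.6 CPM in the controls and did not pass in the main edgeR fit.

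DDIT3, the CHOP factor that drives the late, cell-death side of the response, was at 9.29, 9.31 and 11.03 CPM in the controls and 9.12, 9.19 and 8.14 CPM in the co-treated libraries. All co-treated values lay below the controls, by less than the test could call (log2 fold change -0.17 ± 0.09, SE; edgeR adjusted p = 0.189). The span of DDIT3 overlaps that of MARS1, which fell by 0.18 ± 0.06 on the log2 scale, and without strand reads in the shared stretch cannot be told apart. CEBPG, the usual partner of ATF4 on amino acid genes, was at 37.9, 37.2 and 33.9 CPM in the controls and 40.4, 38.2 and 39.2 CPM after co-treatment, with no overlap (log2 fold change 0.11 ± 0.06, SE; edgeR adjusted p = 0.163). CEBPB, a partner with roles in inflammation and differentiation, ranged from 19.5 to 25.2 CPM after co-treatment and overlapped the controls. JDP2, a repressor that competes at such elements, missed the threshold by little: 5.17, 5.50 and 5.63 CPM in the controls against 4.17, 4.97 and 4.24 CPM (log2 fold change -0.29 ± 0.10, SE; edgeR adjusted p = 0.0508). TRIB3, a pseudokinase that restrains ATF4 and AKT signalling, overlapped between the groups (log2 fold change -0.15 ± 0.09, SE), and NUPR1, a stress-induced chromatin protein, had at most 0.344 CPM in any library. Of these 7 regulators edgeR called 0, with 1 (JDP2) at an unadjusted p under 0.05; DESeq2 called 0 and limma voom 1, again JDP2. Scaling by library size only, edgeR called CEBPG upward (0.17 on the log2 scale, adjusted p = 0.0469), and CEBPB passed upward without co-treated replicate 2 and JDP2 downward (edgeR adjusted p = 0.0441 and 0.0278). CEBPG passed upward also on log2(TPM + 1), where all genes lay higher (0.23, limma adjusted p = 0.0306). With the replicate block and a length trend removed, edgeR called 2 of the 7 upward and 1 downward. These were ATF4, CEBPB (0.20, adjusted p = 0.0359) and, downward, JDP2 (-0.33, adjusted p = 0.0267).

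Among the feedback and effector genes PPP1R15A fell and VLDLR rose. PPP1R15A (GADD34; gene ID 23645, chromosome 19), which brings a phosphatase to eIF2 and so ends the response, was at 127, 121 and 132 CPM in the controls and 78.8, 80.3 and 84.5 CPM in the co-treated libraries. Every co-treated library lay well below every control, and the log2 fold change was -0.64 ± 0.05 (SE), with an edgeR adjusted p of 1.14e-05. Of all tested genes 3.94% had a lower fold change. VLDLR, a lipoprotein receptor induced through ATF4 in stressed cells, rose from 25.0, 24.6 and 25.6 to 30.9, 29.9 and 28.7 CPM (log2 fold change 0.25 ± 0.06, SE; edgeR adjusted p = 0.00523). VLDLR has long transcripts, and with a length trend removed its change was 0.14 and no longer passed (edgeR adjusted p = 0.0698). CHAC1, the glutathione-degrading enzyme often used to read out ATF4 activity, was at 7.85, 7.48 and 6.22 CPM against 5.58, 6.60 and 6.58 CPM. Its groups overlapped (log2 fold change -0.20 ± 0.11, SE; edgeR adjusted p = 0.195). DDIT4 (REDD1), an inhibitor of mTORC1, overlapped too, with 97.4 ± 4.65 CPM in the controls and 89.7 ± 7.45 CPM after co-treatment (SD, n = 3).

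Among the secreted factors STC2 fell and GDF15 and ADM2 did not pass. STC2 (stanniocalcin 2; gene ID 8614, chromosome 5), a glycoprotein hormone induced by ER stress, was at 132, 133 and 129 CPM in the controls and 82.1, 85.2 and 86.8 CPM in the co-treated libraries. The spread within each group was a few CPM, and the log2 fold change was -0.63 ± 0.04 (SE), with an edgeR adjusted p of 7.00e-06, the smallest of any member. GDF15, a stress cytokine that acts on appetite, was at 5.91, 6.33 and 6.57 CPM against 5.36, 5.77 and 4.51 CPM, without overlap (log2 fold change -0.27 ± 0.11, SE; edgeR adjusted p = 0.0718). ADM2, a vasodilator peptide, had 8.32 ± 0.615 CPM in the controls and 8.46 ± 0.611 CPM after co-treatment (SD, n = 3).

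**Figure D2:**
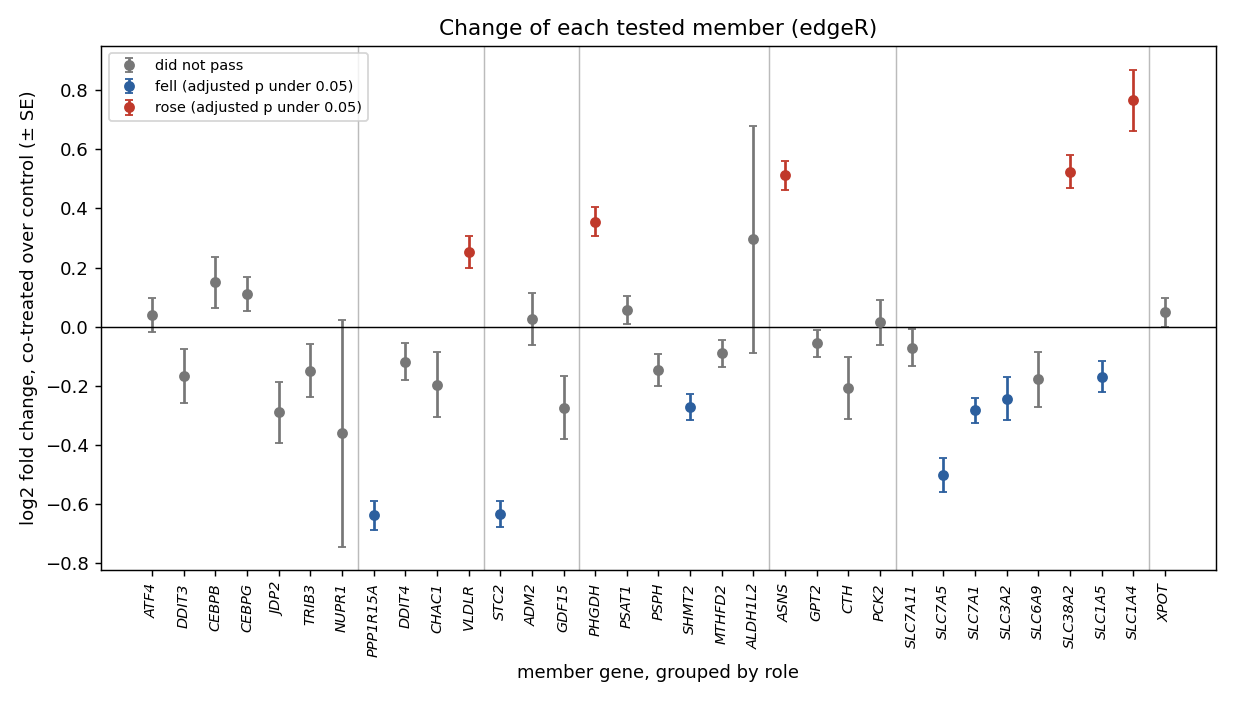
Log2 fold change of each tested member, co-treated over control, with its standard error from the edgeR fit of 3 against 3 libraries, grouped by role. Red marks the 5 members that rose, blue the 7 that fell and grey the 21 that did not pass; NUPR1 and ALDH1L2 carry the widest errors, at under 1 CPM.

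Serine synthesis runs from glycolysis through PHGDH, PSAT1 and PSPH, and SHMT2 then uses serine. PHGDH rose, SHMT2 fell, and the other 4 of these 6 serine and one-carbon enzymes did not pass. PHGDH (gene ID 26227, chromosome 1), which commits carbon to serine, rose from 46.7, 48.8 and 50.3 to 60.9, 61.7 and 64.0 CPM. The lowest co-treated library lay above the highest control, and the log2 fold change was 0.36 ± 0.05 (SE), with an edgeR adjusted p of 0.000353. SHMT2, the mitochondrial enzyme that splits serine into glycine and a folate-bound carbon, fell from 303, 301 and 314 to 243, 259 and 258 CPM (log2 fold change -0.27 ± 0.04, SE; edgeR adjusted p = 0.00103). The middle step, PSAT1, had 145 ± 3.26 CPM in the controls and 150.4 ± 6.97 CPM after co-treatment (SD, n = 3; edgeR adjusted p = 0.389). On log2(TPM + 1), where all genes lay higher, PSAT1 passed upward (0.19, limma adjusted p = 0.0152). PSPH, the last step, was at 49.3, 52.2 and 47.3 CPM against 42.7, 45.5 and 46.2 CPM and missed the threshold (log2 fold change -0.15 ± 0.05, SE; edgeR adjusted p = 0.0590). It passed downward in 3 of 18 alternatives. These were a minimum count of 50, the replicate block and leaving out control replicate 3 (edgeR adjusted p = 0.0497, 0.0405 and 0.0433). Reads of PSPH can be shared with its pseudogene PSPHP1, which had 12.9 CPM in the controls. MTHFD2, the mitochondrial folate enzyme next to SHMT2, overlapped between the groups (log2 fold change -0.09 ± 0.05, SE; edgeR adjusted p = 0.158), and passed with a length trend removed (-0.13, adjusted p = 0.0403). ALDH1L2 was at 0.258 to 0.576 CPM in all 6 libraries.

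ASNS stood apart among the remaining enzymes. ASNS (asparagine synthetase; gene ID 440, chromosome 7), whose element is shown above, rose from 91.8, 94.9 and 89.3 to 126, 129 and 139 CPM. The groups were far apart relative to their spread (1.43-fold; log2 fold change 0.51 ± 0.05, SE; edgeR adjusted p = 5.80e-05), and 6.54% of tested genes had a higher fold change. The readthrough gene CZ1P-ASNS, which overlaps it, had 2.69 CPM in the controls and 2.60 CPM after co-treatment. GPT2, which makes alanine in mitochondria, was at 51.8, 49.2 and 51.3 CPM against 48.5, 48.8 and 49.1 CPM (edgeR adjusted p = 0.381). CTH, which forms cysteine from cystathionine, and PCK2, the mitochondrial phosphoenolpyruvate carboxykinase, overlapped between the groups, with log2 fold changes of -0.21 ± 0.10 and 0.01 ± 0.08 (SE). XPOT, the exporter of tRNA from the nucleus, had 154 ± 7.37 CPM in the controls and 159 ± 5.73 CPM after co-treatment (SD, n = 3). It did not pass by edgeR but did on log2(TPM + 1), where all genes lay higher (0.19, limma adjusted p = 0.0355).

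The amino acid transporters changed in both directions: of 8 tested, 2 rose and 4 fell, while by TPM 2 rose and 2 fell. SLC38A2 (SNAT2; gene ID 54407, chromosome 12), the sodium-coupled carrier of small neutral amino acids that cells induce when starved of them, rose from 644, 667 and 608 to 994, 887 and 879 CPM. Its rise was 1.44-fold (log2 fold change 0.52 ± 0.06, SE; edgeR adjusted p = 8.81e-05), and co-treated replicate 1 was the highest. By TPM it went from 284 ± 18.6, close to SLC3A2 at 282 ± 9.89, to 447 ± 39.1 TPM (SD, n = 3), second only to ATF4 among the members. SLC1A4 (ASCT1; gene ID 6509, chromosome 2), an exchanger of serine, alanine and cysteine, rose from 3.42, 3.75 and 4.28 to 6.46, 6.43 and 6.62 CPM. This was the largest change of any member, 1.70-fold (log2 fold change 0.77 ± 0.10, SE; edgeR adjusted p = 0.000343), at a low level of 1.77 TPM in the controls and 3.33 TPM after co-treatment.

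The 2 subunits of the LAT1 carrier fell by edgeR, but the call of SLC3A2 was lost in 7 of 18 alternatives. SLC7A5 (LAT1 light chain; gene ID 8140, chromosome 16), which imports leucine and other large neutral amino acids, was at 400.2, 399.9 and 398 CPM in the controls and 258, 282 and 306 CPM in the co-treated libraries. The controls were nearly equal, the co-treated libraries more spread, and the log2 fold change was -0.50 ± 0.06 (SE), with an edgeR adjusted p of 0.000136. SLC3A2 (CD98 heavy chain), the common partner of SLC7A5 and SLC7A11, fell from 256, 269 and 281 to 201, 231 and 249.8 CPM, with co-treated replicate 1 again the lowest (log2 fold change -0.24 ± 0.07, SE; edgeR adjusted p = 0.0234). SLC7A11, the cystine importer of system xc-, was at 402, 422 and 351 CPM in the controls and 381, 364 and 374 CPM after co-treatment. The co-treated values lay inside the control range (log2 fold change -0.07 ± 0.06, SE; edgeR adjusted p = 0.413), but SLC7A11 has the longest transcripts of all members and fell by 0.20 with a length trend removed (edgeR adjusted p = 0.0112).

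SLC7A1 (CAT1), the main importer of arginine and lysine, fell from 299, 306 and 289.5 to 243, 243 and 249 CPM (log2 fold change -0.28 ± 0.04, SE; edgeR adjusted p = 0.000619). SLC1A5 (ASCT2), the glutamine exchanger related to SLC1A4, fell from 279, 289 and 298 to 239, 263 and 269 CPM (log2 fold change -0.17 ± 0.05, SE; edgeR adjusted p = 0.0296). The related pair thus changed in opposite directions, at levels far apart: SLC1A5 was at 213 TPM in the controls and SLC1A4 at 1.77 TPM. SLC6A9 (GLYT1), a glycine carrier, was at 7.30, 6.19 and 6.36 CPM against 5.67, 6.02 and 5.83 CPM, without overlap but short of the threshold (log2 fold change -0.18 ± 0.09, SE; edgeR adjusted p = 0.169). The falls of SLC3A2 and SLC1A5 are the least secure of the 12 calls: both failed when only library size was scaled (edgeR adjusted p = 0.0634 and 0.119), and likewise by TPM (limma adjusted p = 0.275 and 0.526). Both also failed without control replicate 2 (0.0609 and 0.0640) or control replicate 3 (0.0809 and 0.0998), SLC3A2 without co-treated replicate 2 (0.0511) and SLC1A5 without co-treated replicate 1 (0.0803), all by edgeR with the same sign.

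**Figure D3:**
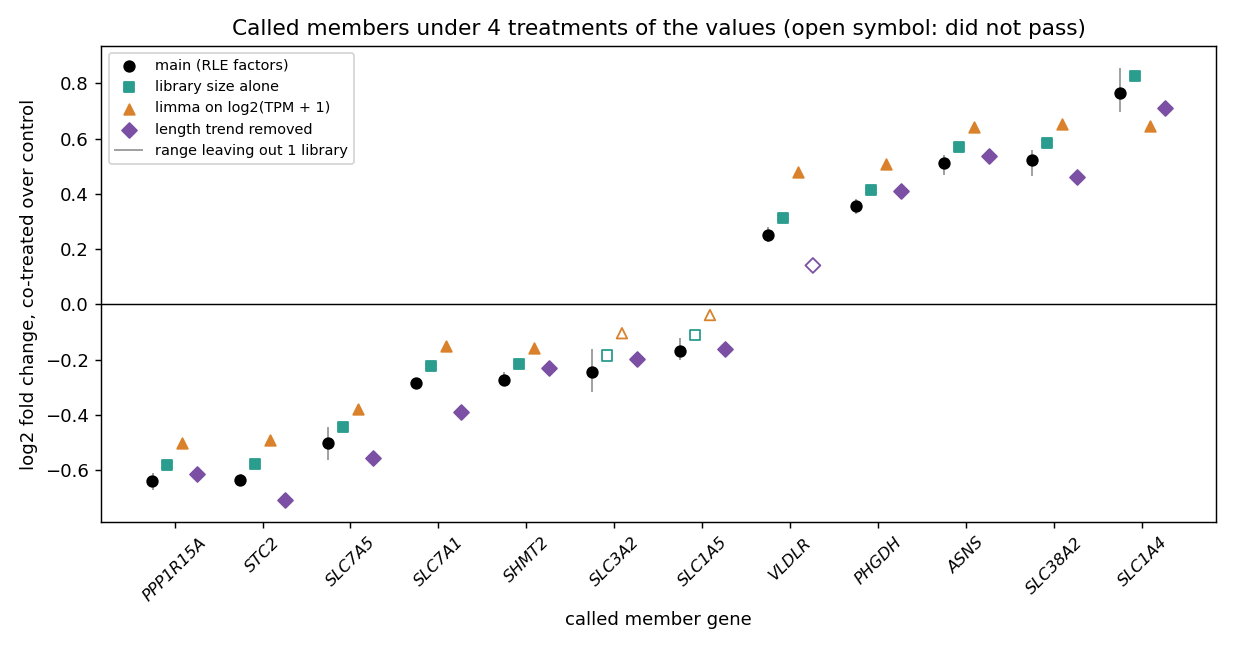
Log2 fold change of the 12 called members under 4 treatments of the values; an open symbol did not pass an adjusted p of 0.05, and the grey line spans the fits that leave out 1 of the 6 libraries. All 12 keep their sign; SLC3A2 and SLC1A5 lose the call by TPM or by library size alone, and VLDLR loses it with the length trend removed.

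Transcript usage within the member genes gave no call. Of 28 members with at least 2 transcripts kept, diffSplice of limma called 0, and 3 had an unadjusted p under 0.05 (SHMT2, SLC7A11 and XPOT); over all genes 2.29% were called. Transcript shares of these genes varied widely between libraries of 1 group. XPOT transcript NM_007235 had 95.3%, 19.9% and 95.2% of the gene's FPKM in the controls and 65.5%, 24.6% and 12.5% after co-treatment. For SHMT2, NM_005412 had 7.53%, 28.2% and 11.3% against 32.1%, 65.3% and 20.2%, and the groups overlapped for both transcripts. Of the other transcripts of these genes some overlapped, such as XR_944484 of XPOT and XR_001741191 of SLC7A11, and some did not. Those given next were picked because they did not overlap, and the share of such transcripts over all genes was not computed. SHMT2 transcript XM_011538675 had 68.3%, 23.4% and 29.5% in the controls and 7.49%, 18.8% and 7.43% after co-treatment. SLC7A11 transcript XR_001741190 had 7.36%, 9.80% and 3.41% against 0.00987%, 0.0253% and 0.0289%. Neither transcript passed by itself in the diffSplice test of limma (adjusted p = 0.313 and 0.289). The rise of ASNS lay mostly in NM_001673, with 81.6% of its FPKM in the controls and 86.5% after co-treatment, and that of SLC38A2 in NM_018976, with 83.6% and 85.1%.

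Upstream of ATF4, genes changed in both directions. Of 19 tested genes for eIF2 kinases, eIF2, eIF2B and their regulators 3 rose and 5 fell by edgeR (16.6% and 17.1% of all genes). By TPM 5 rose and 2 fell (27.3% and 8.09% of all genes). EIF2AK3 (PERK) rose from 24.9 ± 1.29 to 31.3 ± 1.70 CPM (SD, n = 3; edgeR adjusted p = 0.00267). The other kinases did not pass in the main edgeR fit. For EIF2AK1 (HRI, heme and mitochondrial stress) the log2 fold change was 0.12 ± 0.04 (SE), at an edgeR adjusted p of 0.0502. It was 0.08 ± 0.05 for EIF2AK2 (PKR, double-stranded RNA) and -0.10 ± 0.04 for EIF2AK4 (GCN2, uncharged tRNA). EIF2AK1 was called upward in 9 of 18 alternatives. Among them were edgeR with TMM factors, a minimum count of 50 or the replicate block (adjusted p = 0.0462, 0.0412 and 0.0401). DESeq2 (adjusted p = 0.0394) and log2(TPM + 1) (log2 fold change 0.34, limma adjusted p = 0.0109) called it too. EIF2AK4 was called downward with a length trend removed (-0.18, edgeR adjusted p = 0.0122). DNAJC3, a chaperone that inhibits PERK, rose by 0.36 ± 0.06, and PPP1R15B, the constitutive counterpart of PPP1R15A, rose from 133 ± 6.69 to 154 ± 4.08 CPM (SD, n = 3; edgeR adjusted p = 0.00612), opposite in direction to PPP1R15A. For EIF2B1 and EIF2B5 the log2 fold changes were -0.28 ± 0.05 and -0.26 ± 0.04, and for EIF2S2 -0.20 ± 0.04 (SE), a call lost by TPM (limma adjusted p = 0.223).

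Other factors of the bZIP class, the leucine-zipper family of ATF4, were split, with 6 of 20 tested genes higher and 5 lower (8 and 3 by TPM). ATF2, CREB3 and CREB1 rose by 0.27 ± 0.05, 0.25 ± 0.05 and 0.25 ± 0.06 on the log2 scale, and CREB5, MAFG and BATF3 fell by 0.40 ± 0.07, 0.39 ± 0.05 and 0.38 ± 0.09 (SE). By TPM the call of CREB5 was lost (limma adjusted p = 0.0734), and with a length trend removed those of CREB1 and BATF3 (edgeR adjusted p = 0.0677 and 0.0705). ATF3, an early stress factor downstream of ATF4, was at 3.67 ± 0.676 CPM in the controls and 3.66 ± 0.0470 CPM after co-treatment (SD, n = 3; edgeR adjusted p = 0.969). ATF5, translated in the same manner as ATF4, rose by 0.18 ± 0.06 (SE; edgeR adjusted p = 0.0487), with overlapping groups, and lost the call in 6 of 18 alternatives. Among these, leaving out control replicate 1 gave an edgeR adjusted p of 0.183, control replicate 2 of 0.106, co-treated replicate 2 of 0.185 and co-treated replicate 3 of 0.114.

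Of 27 tested further genes linked to ATF4 8 rose and 7 fell (11 and 5 by TPM), with a median log2 fold change of 0.0061. The pseudokinase gene TRIB1 rose from 18.9 ± 0.690 to 33.3 ± 3.93 CPM and KLHL24, a ubiquitin ligase adaptor, from 4.70 ± 0.525 to 8.13 ± 0.429 CPM (SD, n = 3; edgeR adjusted p = 6.2e-05 and 0.000233). HERPUD1, of ER-associated degradation, rose from 73.4 ± 1.04 to 112 ± 7.91 CPM. VEGFA, the angiogenic growth factor, fell from 48.2 ± 2.51 to 27.5 ± 0.843 CPM (SD, n = 3; edgeR adjusted p = 7.64e-06), and the leucine carrier SLC43A1 and ALDH18A1, of proline synthesis, fell by 0.41 ± 0.09 and 0.38 ± 0.04 on the log2 scale (SE). For SESN2, a leucine sensor of the mTORC1 pathway induced by ATF4, the log2 fold change was 0.12 ± 0.07 (SE), with an edgeR adjusted p of 0.203.

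Of 20 cytosolic tRNA synthetases, which load amino acids onto tRNA, 10 fell and 0 rose by edgeR (0 also at an unadjusted p under 0.05; 17.1% and 16.6% of all genes), while by TPM 4 fell and 1 rose (8.09% and 27.3% of all genes). The largest falls were those of VARS1, KARS1 and FARSA, by 0.47 ± 0.05, 0.40 ± 0.04 and 0.35 ± 0.05 on the log2 scale (SE). Of 29 further enzymes of amino acid and folate metabolism 15 fell and 6 rose by edgeR, while by TPM 4 fell and 7 rose, a shift toward rises that all genes share (2835 fell and 2743 rose by edgeR, 1339 and 4516 by TPM). MTHFD1, the cytosolic folate enzyme, fell from 249 ± 2.94 to 194 ± 6.76 CPM (SD, n = 3; edgeR adjusted p = 0.000173). The glutamine synthetase gene GLUL rose from 30.2 ± 0.587 to 36.8 ± 0.463 CPM (SD, n = 3; edgeR adjusted p = 0.00161). Of 22 further transporters 4 rose and 6 fell, while by TPM 6 rose and 4 fell. SLC43A3, a purine nucleobase carrier, fell by 0.68 ± 0.05 and the LAT-family gene SLC7A6 by 0.39 ± 0.05, while SLC38A9, the lysosomal arginine sensor, and SLC43A2, a LAT-type carrier, each rose by 0.37 (SE 0.06 and 0.09), the latter short of the threshold with a length trend removed (edgeR adjusted p = 0.0616). SLC1A1, a glutamate and cysteine carrier, rose from 7.31 ± 0.405 to 8.97 ± 0.969 CPM (SD, n = 3; edgeR adjusted p = 0.0345), a call lost in 8 of 18 alternatives. Leaving out control replicate 1, 2 or 3 gave an edgeR adjusted p of 0.0587, 0.116 or 0.0665, and leaving out co-treated replicate 1 or 2 gave 0.0680 or 0.132.

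Of 22 targets of ATF6 and XBP1, the other arms of the unfolded protein response, 8 rose and 10 fell by edgeR (16.6% and 17.1% of all genes), while by TPM 9 rose and 3 fell (27.3% and 8.09% of all genes). DNAJB9, an ER co-chaperone, rose from 7.88 ± 0.914 to 14.1 ± 1.05 CPM, and SEL1L, of the ER-associated degradation complex, from 103 ± 4.59 to 133 ± 6.94 CPM (SD, n = 3; edgeR adjusted p = 0.000122 and 0.000459). The folding chaperones CALR and HSP90B1 fell by 0.38 ± 0.05 and 0.37 ± 0.05 on the log2 scale and SDF2L1 by 0.40 ± 0.09 (SE). HSPA5 (BiP), the chaperone that marks the response, was at 1061 ± 31.3 CPM in the controls and 967 ± 47.9 CPM after co-treatment (SD, n = 3; edgeR adjusted p = 0.0446), and at 573 TPM in both. Its edgeR call was lost in 9 of 18 alternatives: scaling library size only gave an adjusted p of 0.222, leaving out control replicate 1 or 3 gave 0.127 or 0.132, and leaving out co-treated replicate 2 or 3 gave 0.135 or 0.158.

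**Figure D4:**
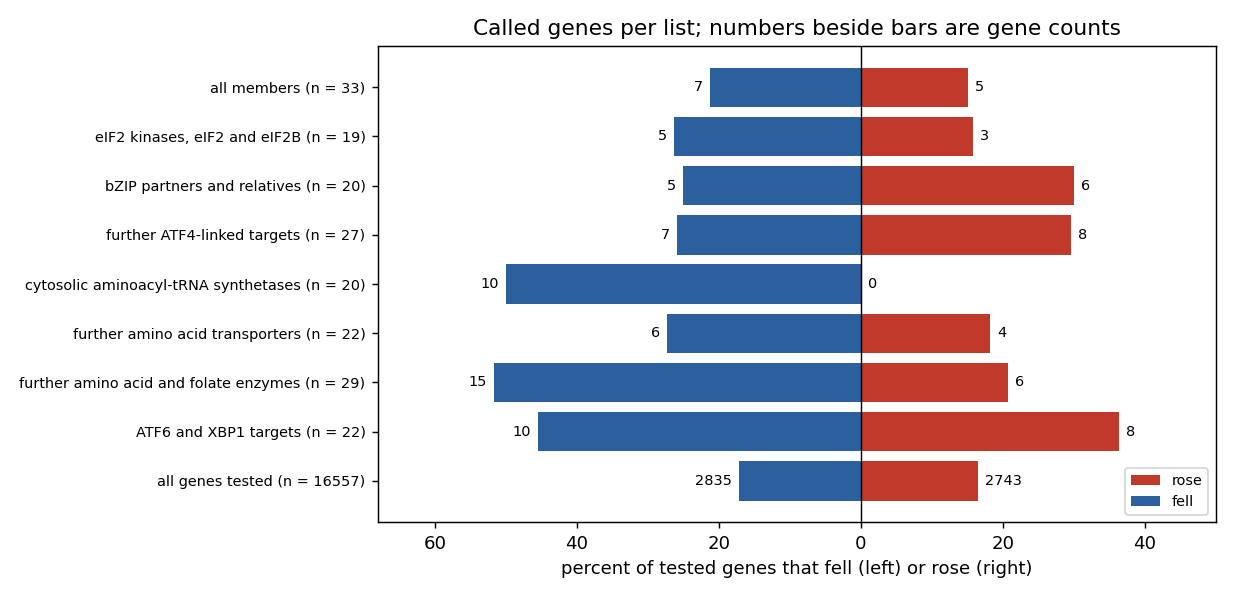
Percent of tested genes in each list that fell (left, blue) or rose (right, red) by the edgeR test, with gene counts beside the bars; the lists share some genes. The members (7 fell, 5 rose) lie near all genes (2835 and 2743 of 16557), and the tRNA synthetases (10 and 0) show only falls by edgeR, against 4 falls and 1 rise by TPM.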

How the data were processed

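RNA was sequenced from 3 control and 3 co-treated samples, grouped by their titles. Trimmomatic 0.38, HISAT2 2.1.0, Bowtie2, SAMtools 1.9, StringTie 2.1.3b and GRCh38 are named, without roles, per the submitters' processing notes; no label read here names a library kit or strandedness. The authors deposited estimated counts, FPKM and TPM per gene and per transcript. Of 220256 low non-zero transcript values 220256 equalled FPKM times length, rounded up (tolerance 0.06), so the deposited counts are estimates, not counted reads. The gene table's estimated counts were tested with edgeR 4.0.16 (quasi-likelihood; relative log expression, the normalization the labels mention) in R 4.3.3 after filterByExpr (minimum count 10), with Benjamini-Hochberg adjustment over 16557 genes. CPM uses the same factors. Fold changes carry the fit's standard errors. Columns starting Con were taken as control and those starting Mo as co-treated. The deposited TPM was tested with limma 3.58.1 on log2(TPM + 1), and the deposited FPKM gave transcript shares; usage was tested with diffSplice after voom, for transcripts with a mean count of 10 or more. Scripts were tested on simulated data.

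The members and lists were chosen with earlier results of these data known. All members are reported; from the other lists, up to 3 called genes per direction with the largest change at 5 CPM or more, plus 8 genes picked by role; some genes this rule names are not reported here. The alternatives tried were DESeq2 1.42.0, limma voom, TMM, scaling by library size only, other minimum counts, the TPM scale with pseudocounts 1 and 0.1, a lowess length trend removed, the replicate block, and each library left out. Libraries of 1 group were not duplicates: their pairwise chi-square divided by its degrees of freedom was 11.7 to 19.5. Figures were drawn with matplotlib 3.10.9.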

Additional observations from a re-analysis of the deposited data

How the results depend on the processing

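Of the 12 called members 8 kept their call in all 18 alternatives (PPP1R15A, STC2, SLC7A5, SHMT2, PHGDH, ASNS, SLC38A2 and SLC1A4); VLDLR, SLC7A1, SLC3A2 and SLC1A5 lost it in at least 1, all with the same sign. Of the 21 members without a call 10 were called in some alternative and 11 in none. Leaving out each library gave 5 to 8 members that fell and 5 or 6 that rose, 43 to 50 and 25 to 29 in the other lists, and 2158 to 2469 and 2065 to 2357 over all genes. The TPM scale moved the balance: with log2(TPM + 1) and log2(TPM + 0.1) 9 and 9 members rose, 23 and 23 genes of the other lists fell (54 by edgeR on the estimated counts), and over all genes 4516 and 4490 rose and 1339 and 1338 fell. Without a filter on that scale 4 members, 19 genes of the other lists and 968 of all genes fell. The cause of these shifts was not tested.

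No label says whether equal replicate numbers mark paired samples. Same-numbered libraries deviated from their group means with correlations of 0.0691, 0.000448 and -0.0357, and differently numbered ones with -0.0524 to 0.0587. With 3 libraries per group these values cannot decide whether the samples were paired. With the replicate block 5 members rose and 9 fell, or 42.4% of members tested, against 38.5% of all genes tested. Transcript usage was called with that block for 1 member, SHMT2. Leaving out each library, without the block, gave 0 to 1 (XPOT without control replicate 2, SHMT2 without co-treated replicate 2). With a minimum count of 50, 41.9% of members tested were called, against 41.7% of all genes tested. NUPR1 and ALDH1L2 had under 1 CPM and CBS 1 estimated count in all; no change was called for them, and whether depth is the limit was not tested.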
